A study of Mus musculus with 2 samples.

Results

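The genes described here encode the thin filament of heart muscle: cardiac troponin T (Tnnt2, ENSMUSG00000026414), cardiac troponin I (Tnni3, ENSMUSG00000035458), slow skeletal troponin I (Tnni1, ENSMUSG00000026418), troponin C (Tnnc1, ENSMUSG00000091898), alpha-tropomyosin (Tpm1, ENSMUSG00000032366), cardiac alpha-actin (Actc1, ENSMUSG00000068614) and skeletal alpha-actin (Acta1, ENSMUSG00000031972). They were chosen by Ensembl gene ID, and all peaks of accessible chromatin that the deposited table assigns to those IDs were taken. There were 40 such peaks out of 83549, belonging to 7 of 28944 annotated genes. Tnni1 had 13 of them, Tpm1 12, Tnnt2 6, Acta1 3, and Tnni3, Tnnc1 and Actc1 2 each. The table gives IDs without symbols, so the names are those paired with the IDs in the choice of members. All 7 names lie in the RefSeq gene table on the chromosome the deposited table gives for the ID.

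The thin filament is a polymer of actin, along which tropomyosin lies and to which the troponin complex is bound. Troponin C binds calcium, troponin I holds the filament in its blocked state, and troponin T anchors both to tropomyosin, so that calcium release lets myosin engage actin. In the mouse heart the troponin I gene in use changes around birth: Tnni1 serves the fetal heart and Tnni3 the adult heart. Acta1 is likewise active in the fetal heart, is the main alpha-actin of skeletal muscle and is a familiar marker of cardiac stress in rodents, whereas Actc1 is the main cardiac form in the adult.

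The assay was ATAC-seq on heart nuclei, in which the transposase Tn5 inserts adapters into open DNA. The Wtap-CKO library came from pooled hearts of 6 mice with a cardiomyocyte-specific knockout of Wtap, a subunit of the complex that places N6-methyladenosine on RNA, and the Wtapflox/flox library from pooled hearts of 7 mice, all aged 4 days. The allele or transgene that drives the deletion, the strain and the sexes of the mice are not stated in the labels, and the other cells of the heart should keep Wtap. Each genotype is 1 library, so no difference below has a replicate check and none was tested. The libraries held 9816384 reads in peaks for Wtap-CKO and 9835753 for Wtapflox/flox, with medians of 67 and 64 reads per peak. The 7 genes took 10240 reads (0.104% of reads in peaks) in Wtap-CKO and 10656 (0.108%) in Wtapflox/flox. Levels are given in CPM, which are reads scaled to the library's reads in all peaks, per kb of peak. Differences are log2 ratios of Wtap-CKO over Wtapflox/flox after adding 0.5 CPM, each with an exact 95% interval that covers counting error only. The labelled tissue could be checked only with these genes themselves: peaks over an annotated start of Tnnt2, Tnni3, Tnnc1, Tpm1 and Actc1 were called in both libraries.

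The start-site regions of all 7 genes had fewer reads in the Wtap-CKO library, with the actin genes lowest and troponin T nearest to no change. With reads summed over the peaks that lie up to 1000 bp from an annotated start, the log2 ratio was lowest for Actc1 (-0.67) and Acta1 (-0.64), followed by Tnni1 (-0.35), Tnnc1 (-0.33), Tnni3 (-0.23), Tpm1 (-0.20) and Tnnt2 (-0.17). The counting interval lay below 0 for 7 of 7 genes, against 23.5% of the 16298 genes with such a peak, and above 0 for 0 of 7, against 13.5%. That count depends on the window: it was 4 of 7 with the nearest peak only, where Tnni3, Tnnc1 and Tnni1 lost the call, and 6 of 7 with a 3000 bp window, where the Tnnt2 ratio turned to 0.0898. These 7 genes include strongly covered ones, whose intervals are narrow. Acta1 is not one of them: its start region, at a mean of 5.49 CPM, lay under the floor for gene start regions (9.67 CPM). The Acta1 start peak was called in Wtapflox/flox only. It thus entered the set through the library where it had more reads, so its low ratio was favoured in advance. Among the 2085 genes with a mean start-site signal between 54.9 and 115 CPM, the range of the 6 members over the signal floor, 41.6% had an interval below 0 and 8.59% one above 0, and the median log2 ratio was -0.11. No member passed 2-fold, which 0.196% of gene start regions over the floor passed upward and 0.180% downward. In bulk hearts, fewer cardiomyocytes and less open chromatin per cardiomyocyte cannot be told apart. Markers of the other cell types of the heart could not be tied to IDs in the table, and their part in these differences was not tested.

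**Figure D1:**
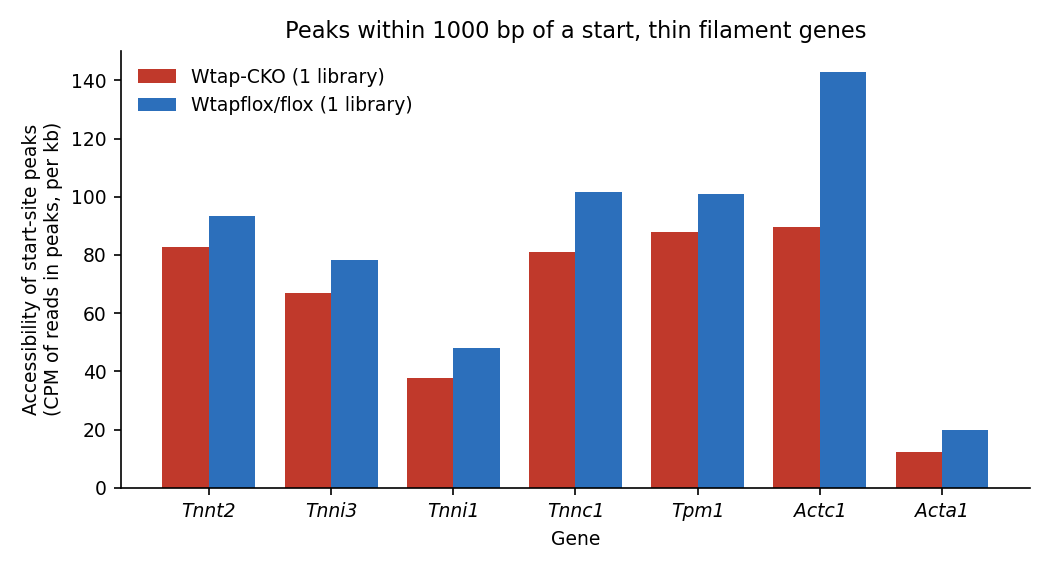
Accessibility of peaks within 1000 bp of a start, in CPM per kb of peak, for each gene in Wtap-CKO (red, left) and Wtapflox/flox (blue, right), 1 library each, so no error bars are drawn. Every red bar is below its blue partner; the gap is widest for Actc1, at 89.8 in Wtap-CKO and 143 in Wtapflox/flox.

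Actc1 had fewer Wtap-CKO reads at its start and in its other peak, as did 2 upstream peaks picked after their values were seen. Its start-site ratio and that of Acta1 differed by less than counting error, and their order turned with a pseudocount of 0.1 CPM, at -0.67 for Actc1 and -0.69 for Acta1. The peak over its start (chromosome 2, 113883164 to 113883635, GRCm39) held 416 Wtap-CKO reads against 664 Wtapflox/flox reads (log2 ratio -0.67, interval -0.85 to -0.49). Of the 12223 genes over the floor, 1.57% had a lower start-site ratio. In the authors' deposited table, which scales to all reads of the library, the log2 fold change of this peak was -0.89. The gene's other peak, 1445 bp wide and 5996 bp from the start and just past the annotated end of the gene (113875928 to 113877372), lies in intron 4 of 7 of an overlapping gene. It held 565 Wtap-CKO reads against 789 Wtapflox/flox reads (log2 ratio -0.48, interval -0.64 to -0.32). The 2 nearest peaks upstream, 1161 and 4286 bp before the Actc1 start, are assigned to another gene (ENSMUSG00000092397) and were picked out after their values were seen. The nearer had 445 Wtap-CKO reads against 680 Wtapflox/flox reads (log2 ratio -0.60), and the farther 348 and 637 in the same order (-0.86). Over the 4 peaks the sums were 1774 Wtap-CKO reads against 2770 Wtapflox/flox reads, and 4 of 4 were lower in Wtap-CKO. Picking the upstream peaks by their values favoured that count. Of all 83549 peaks, 40828 had a ratio below 0.

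Acta1 was the least accessible of the genes, and each of its peaks was called in Wtapflox/flox only. The start peak (chromosome 8, 124621446 to 124621787) held 41 Wtap-CKO reads against 67 Wtapflox/flox reads (log2 ratio -0.64, interval -1.30 to -0.12). A peak 3093 bp from the start, in the first intron of an overlapping gene, held 25 and 54 reads in Wtap-CKO and Wtapflox/flox (-0.98, interval -1.85 to -0.40). The farthest, at 11378 bp, held 17 and 29 reads in the same order (-0.63, interval -1.72 to 0.14). Their sum was 83 Wtap-CKO reads against 150 Wtapflox/flox reads (log2 ratio -0.81, interval -1.26 to -0.45). Peaks called in Wtapflox/flox only made up 21.2% of all peaks and 6 of the 40 described here. At such counts a ratio is loose, and reads were present in Wtap-CKO at all 3 places. Peaks kept through a call in Wtapflox/flox only are favoured to have low ratios, so the direction here carries little weight.

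RefSeq promoter windows (build GRCm38.p6, 250 bases before to 50 after the RefSeq start) were found for 7 of 7 genes, 9 windows in all. They come from another build than the peaks and are not placed on them by coordinate. The windows of the alpha-actin genes are shown because these genes had the lowest ratios and share 2 sequence features. These are a CArG box, the site bound by serum response factor, and the TATA box letters TATAAA. Capitals mark a CArG box, TATAAA and the TEAD motif CATTCC on either strand. The Actc1 window is chr2:114052826-114053125, minus strand, and the Acta1 window is chr8:123894726-123895025, minus strand.
Actc1: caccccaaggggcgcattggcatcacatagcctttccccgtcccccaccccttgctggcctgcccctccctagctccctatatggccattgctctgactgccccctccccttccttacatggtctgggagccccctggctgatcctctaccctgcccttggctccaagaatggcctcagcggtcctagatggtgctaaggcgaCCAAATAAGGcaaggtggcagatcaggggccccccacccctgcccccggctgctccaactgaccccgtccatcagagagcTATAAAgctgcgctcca
Acta1: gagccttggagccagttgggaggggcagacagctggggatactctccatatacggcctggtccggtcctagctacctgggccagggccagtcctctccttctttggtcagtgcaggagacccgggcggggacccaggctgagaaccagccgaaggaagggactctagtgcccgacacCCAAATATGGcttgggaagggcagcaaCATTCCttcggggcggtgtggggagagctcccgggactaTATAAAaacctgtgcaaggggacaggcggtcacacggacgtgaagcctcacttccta

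The CArG box lies at bases 204 to 213 of the Actc1 window and at bases 178 to 187 of the Acta1 window, counted from the 5′ end. Of 32851 promoter windows, 1.63% hold a CArG box, and none of the other 7 member windows does. TATAAA occurs in 13.6% of all windows and, among the members, in those of Actc1 and Acta1. In the Actc1 window it lies at bases 284 to 289, after the RefSeq start. In the Acta1 window it lies at bases 244 to 249, directly before that start. CATTCC, bound by TEAD factors, occurs in 14.7% of all windows and in those of Acta1, Tnnc1 and Tpm1 and 1 of the 2 of Tnnt2. AGATAA, bound by GATA factors, was found in 1 Tnnt2 window (11.2% of all windows), and the MEF2 motif in no member window (3.19%). The E-box CANNTG occurs in every member window and in 72.3% of all windows. Both strands were searched, and a match is a description of the letters only.

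Tpm1 had lower accessibility near its starts, and its outlying peaks were mixed. The 10 outlying peaks summed to 1716 Wtap-CKO reads against 1581 Wtapflox/flox reads (log2 ratio 0.12, interval 0.02 to 0.22), with 6 higher and 4 lower. Without the downstream peak, left out after its values were seen, the sum was within counting error (0.042, interval -0.0645 to 0.149), and scaling to library totals turned the full sum to -0.0948. The peak over the upstream start (chromosome 9, 66956382 to 66957111) held 680 Wtap-CKO reads against 781 Wtapflox/flox reads (log2 ratio -0.20, interval -0.35 to -0.05). At the internal start, a peak (66950962 to 66951454) held 374 Wtap-CKO reads against 434 Wtapflox/flox reads (-0.21, interval -0.42 to -0.01). Tpm1 is transcribed from alternative starts that give muscle and non-muscle forms, and both start peaks were lower by about the same ratio. The 4 peaks from one start to the other had a sum of 1396 Wtap-CKO reads against 1616 Wtapflox/flox reads, and 4 of 4 were lower in Wtap-CKO. The peak with the most reads away from the starts, in intron 7 of 7, had 569 and 538 reads in Wtap-CKO and Wtapflox/flox, a difference within counting error (0.08, interval -0.09 to 0.26). A peak downstream of the gene (66927194 to 66927782) was higher, with 265 Wtap-CKO reads against 169 Wtapflox/flox reads (0.64, interval 0.37 to 0.94). The lowest of the outlying peaks over the floor, 1853 bp inside the gene, had 177 Wtap-CKO reads against 214 Wtapflox/flox reads (-0.26). Far upstream, peaks at 21679 and 22248 bp were called in Wtap-CKO only. Their counts were 45 and 48 in Wtap-CKO, against 22 and 14 in Wtapflox/flox, and both lay under the signal floor of 3.92 mean CPM.

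Tnnt2 was the one gene of the 7 with more reads in Wtap-CKO over all its peaks together, although its start peak had fewer. The start peak (chromosome 1, 135763490 to 135764270) held 634 Wtap-CKO reads against 717 Wtapflox/flox reads (log2 ratio -0.17, interval -0.33 to -0.02). Each of its 5 other peaks had a ratio above 0, and their sum was 2545 Wtap-CKO reads against 1872 Wtapflox/flox reads (0.44, interval 0.36 to 0.53). Without the one with the most reads that sum had a ratio of 0.27 (0.14 to 0.40). The largest was a 2041 bp peak (135782397 to 135784437) that begins 2399 bp beyond the end of the annotated transcript and 18305 bp from its start. It had the most reads of any peak described here, 1470 in Wtap-CKO and 979 in Wtapflox/flox, with a log2 ratio of 0.59 (0.47 to 0.71). Relative to the start peak its ratio was higher by 0.76 (0.57 to 0.96), a value that library scaling cannot move, in a comparison that was not planned. A peak 1701 bp before the start (135762072 to 135762391) was also higher, with 229 Wtap-CKO reads against 150 Wtapflox/flox reads (0.60, interval 0.31 to 0.92). The lowest of the outlying ratios belonged to an exon peak with 176 and 167 reads in Wtap-CKO and Wtapflox/flox (0.08, interval -0.24 to 0.39). Peaks of another gene ID lie beyond the 2041 bp peak, and both were higher too, with 615 and 118 reads in Wtap-CKO and 444 and 81 in Wtapflox/flox. The Tnnt2 window in RefSeq (chr1:135836084-135836383, plus strand) is shown because of its TEAD motif, written in capitals, and its 5 E-boxes.
Tnnt2: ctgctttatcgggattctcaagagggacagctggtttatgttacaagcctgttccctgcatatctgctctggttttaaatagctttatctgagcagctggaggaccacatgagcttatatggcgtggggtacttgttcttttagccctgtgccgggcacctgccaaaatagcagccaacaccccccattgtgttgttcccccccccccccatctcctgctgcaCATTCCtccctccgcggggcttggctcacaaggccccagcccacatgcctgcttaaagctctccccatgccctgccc

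Tnni1 lies on the same chromosome, its annotated transcripts ending 25365 bp before the Tnnt2 start, and its peaks did not move as one. The strongest, 232 bp inside an annotated start (135727803 to 135728671), held 435 Wtap-CKO reads against 670 Wtapflox/flox reads (log2 ratio -0.61, interval -0.80 to -0.44). The peak over another start just upstream (135726964 to 135727307) held 179 Wtap-CKO reads against 213 Wtapflox/flox reads (-0.24, interval -0.54 to 0.05). Peaks at 2 farther upstream starts leaned the other way within counting error, with 133 and 86 reads in Wtap-CKO and 118 and 64 in Wtapflox/flox (0.17 and 0.40). In the long second intron, a peak at 135722226 to 135722615 was called in Wtap-CKO only. It had 151 reads there against 82 in Wtapflox/flox, the highest ratio of the gene (0.85, interval 0.49 to 1.29). The lowest ratio away from the starts was -0.59, at another peak of the same intron (48 Wtap-CKO reads against 75 Wtapflox/flox reads, called in Wtapflox/flox only). Of the peaks outside 1000 bp, the best covered lay beyond the gene, with 154 and 162 reads in Wtap-CKO and Wtapflox/flox (-0.07). Divided after their values were seen, the 9 peaks before the strong start region had 859 Wtap-CKO reads against 687 Wtapflox/flox reads, with 8 of 9 higher. From that start region on, the other 4 had 867 Wtap-CKO reads against 1166 Wtapflox/flox reads, with 4 of 4 lower. Some of the 9 were called in 1 library only, mostly Wtap-CKO, and were favoured to be higher there. A different set, the 9 Tnni1 peaks outside 1000 bp, had a summed ratio of 0.18 (0.04 to 0.32). Without the intron peak at 135722226 to 135722615, that ratio was 0.0741 (-0.076 to 0.23). Scaled to library totals, the full sum had a ratio of -0.0326.

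**Figure D2:**
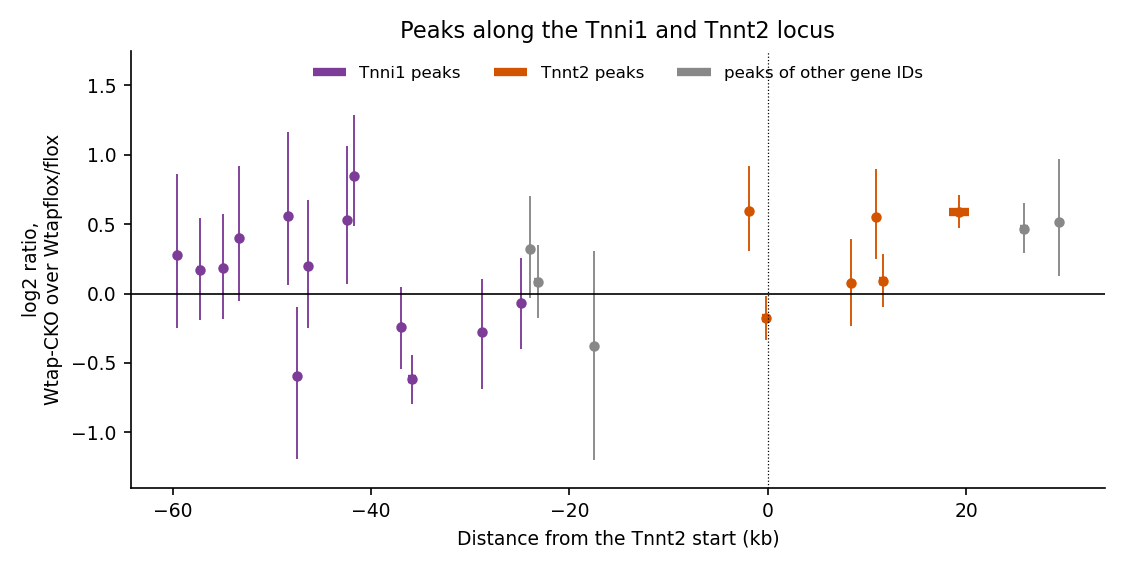
Log2 ratio, Wtap-CKO over Wtapflox/flox, of each peak along the Tnni1 and Tnnt2 locus, against distance from the Tnnt2 start in kb (dotted line). Dots with short bars show peaks and their widths, thin vertical lines the 95% counting intervals. The Tnni1 start region lies lowest among the well covered peaks, and the broad Tnnt2 peak past the gene lies at 0.59.

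Tnni3, the adult troponin I gene, and Tnnc1 each had one peak over the start and one just inside the gene, and in both genes the inner peak carried the difference. For Tnni3 (chromosome 7), the start peak at 4525293 to 4526033 held 626 Wtap-CKO reads against 668 Wtapflox/flox reads, within counting error (-0.09, interval -0.25 to 0.07). The inner peak at 4524323 to 4524894 held 237 Wtap-CKO reads against 345 Wtapflox/flox reads (-0.53, interval -0.78 to -0.30). For Tnnc1 (chromosome 14), the start peak at 30930058 to 30930359 was equal, with 233 Wtap-CKO reads against 234 Wtapflox/flox reads (-0.003, interval -0.27 to 0.26). Its inner peak, 739 bp from an annotated start (30931028 to 30931528), held 405 Wtap-CKO reads against 568 Wtapflox/flox reads (-0.48, interval -0.67 to -0.30). The ratio of the inner peak was lower than that of the start peak by -0.45 (-0.74 to -0.16) in Tnni3 and by -0.48 (-0.81 to -0.15) in Tnnc1. In Tnni1 the peak 232 bp inside one annotated start was lower than the peak over another start just upstream by -0.37 (-0.72 to -0.03). These 3 differences are free of library scaling. The comparisons were not planned, and the same difference was not taken over other genes.

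**Figure D3:**
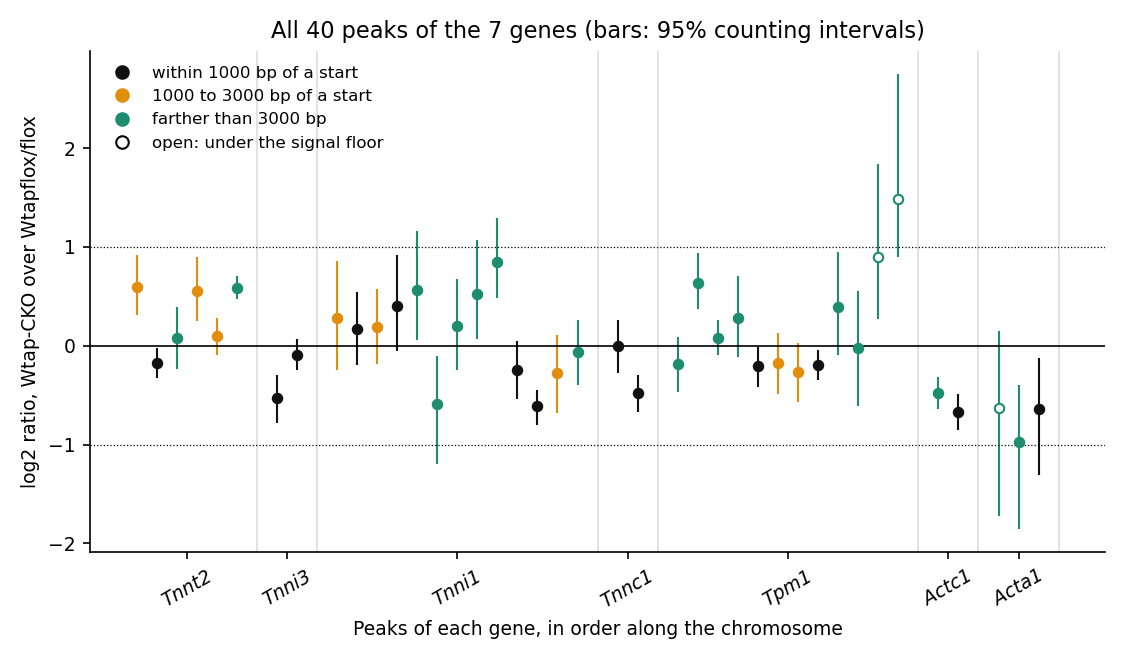
Log2 ratio, Wtap-CKO over Wtapflox/flox, of all 40 peaks, grouped by gene and ordered along the chromosome, with 95% counting intervals; black marks peaks within 1000 bp of a start, orange 1000 to 3000 bp, green farther, and open circles peaks under the signal floor. Most black points lie below 0, whereas the green and orange points of Tnnt2 lie above it, and dotted lines mark 2-fold.

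With reads summed over all peaks near a gene's starts, the fetal forms did not differ from the adult forms by more than counting error. The start-site level of Tnni1 was 37.7 CPM per kb in Wtap-CKO and 48.2 in Wtapflox/flox, and that of Tnni3 was 67.0 in Wtap-CKO and 78.4 in Wtapflox/flox. The Tnni1 level averages 4 unlike peaks: in Wtapflox/flox those at the upstream starts had 18.5 and 16.9 CPM per kb. The peaks of its strong start region had 63.0 and 78.4. Over all 4 peaks, the log2 ratio of Tnni1 minus that of Tnni3 was -0.12 (-0.31 to 0.06). The upstream peaks had ratios of 0.17 and 0.40, those of the strong start region -0.24 and -0.61, and Tnni3 -0.23. The strong start region as a whole was not set against Tnni3. The stronger peak of that region, picked after its values were seen, had an interval of -0.80 to -0.44. The interval of Tnni3 was -0.36 to -0.10. The start-site level of Acta1 was 12.2 CPM per kb in Wtap-CKO and 19.9 in Wtapflox/flox, well under that of Actc1, at 89.8 in Wtap-CKO and 143 in Wtapflox/flox. From the counts without the added 0.5 CPM, the log2 ratio of Acta1 minus that of Actc1 was -0.03, with a wide interval (-0.66 to 0.58). With 0.5 CPM added the order was the other way, at -0.64 for Acta1 and -0.67 for Actc1. With Tnni1 and Acta1 summed against the other 5 genes, the difference was -0.08 (-0.23 to 0.06). The fetal forms had 874 Wtap-CKO reads against 1132 Wtapflox/flox reads, and the other 5 genes 3605 and 4411 in the same order. Those 5 were grouped as adult forms, although only Tnni3 and Actc1 among them are paired with a fetal form here. Tnni1 gives most of the fetal reads, and with each gene weighing the same the difference was -0.21. An interval that spans 0 does not show that the forms changed alike. Over all peaks of the genes the pooled difference was -0.11 (-0.21 to -0.01), where the higher outlying peaks of Tnnt2 enter the adult sum. The windows of the troponin I pair are shown to set the fetal beside the adult promoter. Tnni1 is at chr1:135799171-135799470, plus strand, and Tnni3 at chr7:4522479-4522778, minus strand, and neither holds a CArG box, TATAAA or CATTCC, so no letters are in capitals.
Tnni1: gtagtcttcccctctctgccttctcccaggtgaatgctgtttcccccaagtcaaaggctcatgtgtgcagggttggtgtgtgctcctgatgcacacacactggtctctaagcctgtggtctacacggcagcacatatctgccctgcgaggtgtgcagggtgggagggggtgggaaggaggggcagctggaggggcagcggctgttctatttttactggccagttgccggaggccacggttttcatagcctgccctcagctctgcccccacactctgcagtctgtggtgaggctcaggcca
Tnni3: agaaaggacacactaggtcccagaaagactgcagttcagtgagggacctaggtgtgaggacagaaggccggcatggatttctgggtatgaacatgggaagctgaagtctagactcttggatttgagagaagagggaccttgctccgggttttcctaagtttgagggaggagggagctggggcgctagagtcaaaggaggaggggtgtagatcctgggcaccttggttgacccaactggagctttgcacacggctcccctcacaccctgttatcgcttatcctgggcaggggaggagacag

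Peaks near a start were mostly lower, and the outlying peaks differed between the genes: the summed outlying ratio was below 0 for Actc1 (-0.48) and Acta1 (-0.90) and above 0 for Tnnt2, Tnni1 and Tpm1, the last pair turning below 0 when scaled to library totals. Near a start (up to 1000 bp), 11 of 13 peaks had a ratio below 0, with a median of -0.21 against -0.06 for all 22815 such peaks. The interval lay below 0 for 8 of 13, against 22.3% of those peaks, and above 0 for 0 of 13, against 14.6%. The 13 come from 7 genes, and many are strongly covered, so their intervals are narrow. No share at like signal was taken for peaks. For gene start regions in the signal range of the 6 members over the floor, 41.6% had an interval below 0. Of the 27 peaks farther away, 17 had a ratio above 0, with a median of 0.19 against 0.05 for all 60734 such peaks. The interval lay above 0 for 9 of 27, against 23.6%, and below 0 for 3 of 27, against 16.4%. Most of the 9 were called in Wtap-CKO only, and most of the 3 in Wtapflox/flox only. Such peaks entered the set through the library where they had more reads, so their direction was favoured in advance. The shares over all peaks hold such peaks too. Of the 40 peaks, 37 passed the signal floor, and 0 of these reached 2-fold in either direction, which 3.50% of all peaks over the floor did upward and 1.45% downward. Just 1 peak under the floor, the Tpm1 peak at 22248 bp, did so, at a log2 ratio of 1.49. Peaks called in Wtap-CKO only numbered 7 of 40, against 17.6% of all peaks.

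Within a gene, a comparison chosen after the values were seen, the ratio of outlying peaks minus that of peaks near a start was 0.62 (0.44 to 0.80) for Tnnt2, 0.53 (0.34 to 0.73) for Tnni1 and 0.32 (0.17 to 0.48) for Tpm1. For Actc1 it was 0.19 (-0.05 to 0.43), and for Acta1 -0.27 (-1.10 to 0.55). The interval lay above 0 for 3 of the 5 genes with both kinds of peak, against 29.3% of 7150 genes with at least 100 reads in each kind, and below 0 for 0 of 5, against 9.97%. The median over those genes was 0.16, so the direction was common in these libraries. Of those genes, 85.4% had a lower difference than Tnnt2, 81.0% than Tnni1, 65.3% than Tpm1, 53.3% than Actc1 and 16.8% than Acta1. The outlying sums of Tnnt2, Tnni1 and Tpm1 hold peaks called in 1 library only, and were not taken again without them. Over all peaks of a gene, keeping those called in both libraries moved Tnni1 from -0.10 to -0.21 and left Tnnt2 at 0.30.

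**Figure D4:**
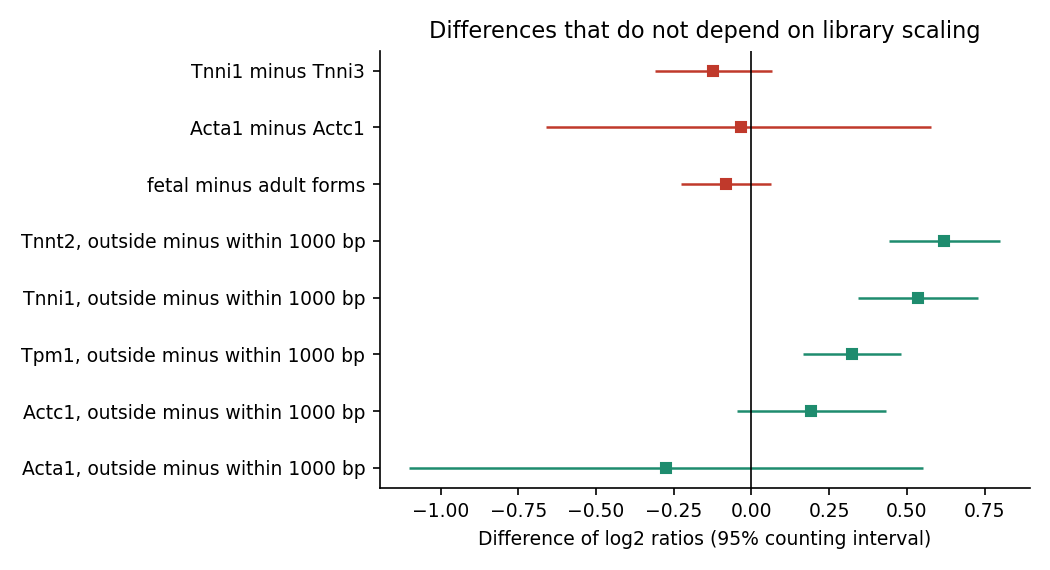
Differences between 2 log2 ratios (Wtap-CKO over Wtapflox/flox) without the added 0.5 CPM, with 95% counting intervals. Library scaling cancels in each. The 3 red squares compare fetal with adult forms near the starts and span 0; the green squares compare outlying peaks with peaks within 1000 bp of a start in 5 genes, and those of Tnnt2, Tnni1 and Tpm1 lie above 0.

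Other genes annotated to the thin filament had a median nearer to 0 and on the same side. The table's Gene Ontology terms gave 20 further genes with terms for the thin filament, the troponin complex or tropomyosin binding, and 19 had a peak within 1000 bp of a start. Their median log2 ratio was -0.21, against -0.06 for all 16298 genes with such a peak and -0.33 for the 7 genes described here. Of the 19, 14 lay below 0, against 57.4% of all those genes. The interval lay below 0 for 7 of the 19, against 23.5% of all, and above 0 for 1 of the 19, against 13.5%. Of the 14 over the floor, 0 reached 2-fold in either direction, against 0.196% upward and 0.180% downward. Under the floor, ENSMUSG00000017300 was higher (44 Wtap-CKO reads against 9 Wtapflox/flox reads, 1.82) and had the only interval above 0. ENSMUSG00000026950, also under the floor, was lower (14 Wtap-CKO reads against 54 Wtapflox/flox reads, -1.64). The best covered was ENSMUSG00000064179, a troponin complex gene beside Tnni3 on chromosome 7, with 866 Wtap-CKO reads against 1005 Wtapflox/flox reads (-0.21, interval -0.34 to -0.08). ENSMUSG00000049134, a cardiac thin filament assembly gene on chromosome 19, had 869 Wtap-CKO reads against 893 Wtapflox/flox reads (-0.04). ENSMUSG00000034295, a striated muscle thin filament gene, had 470 and 622 reads in Wtap-CKO and Wtapflox/flox (-0.40). The lowest over the floor was ENSMUSG00000045667, a tropomyosin binding gene on chromosome 11, with 286 Wtap-CKO reads against 444 Wtapflox/flox reads (-0.62). The highest was ENSMUSG00000058587 on chromosome 9, with 308 and 262 reads in the same order (0.23, interval -0.01 to 0.48).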

How the data were processed

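Chromatin accessibility was measured in 1 Wtap-CKO and 1 Wtapflox/flox library, grouped by the genotype in the labels. Per the submitters' processing notes the build was GRCm39 and the tools were MACS2 2.1.0, BWA 0.7.12, fastp 0.20.0, ChIPseeker and HOMER 4.11; the Tn5 shift, duplicate removal and peak threshold are not stated there. The deposited counts are whole numbers of reads for each merged peak. The RPM deposited by the authors is, from the values, the count plus 1 read times 1 constant per library (0.01475 for Wtap-CKO, 0.0171 for Wtapflox/flox). The fold enrichment ratio deposited by the authors was not used. The log2 fold change deposited by the authors is the log2 ratio of the RPM, with no centring.

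Counts were scaled to reads in all peaks, 0.5 CPM was added, and ratios were taken as Wtap-CKO over Wtapflox/flox, with exact conditional binomial (Clopper-Pearson) 95% intervals. Differences of ratios were taken from the counts with no CPM added, and have exact conditional odds ratio intervals. Intervals cover counting error only; duplicates left in the counts would make them too narrow. The signal floor was the 25th percentile of mean CPM, 3.92 for peaks (38.5 reads) and 9.67 for gene start regions. With 1 library per genotype no test was run. Methods were tested on simulated counts. Python 3.11.15, numpy 2.4.6, pandas 2.3.3, scipy 1.17.1 and matplotlib 3.10.9 were used. The members and lists were chosen with earlier results of these data known. Named were all 7 genes, each peak within 1000 bp of a start and, of the others, the best covered peak and the highest and lowest ratio over the floor, plus, of the Gene Ontology list, the 3 best covered genes and the highest and lowest over the floor; other peaks named were picked after their values were seen. The lists fixed as symbols could not be matched, since 0 reference genes carry an Ensembl ID; Gene Ontology terms in the table replaced the thin filament list, and cell type markers were not used. The alternatives tried were pseudocounts of 0.1 and 2, scaling to library totals, centring on all or promoter peaks, other floors, a 1.5-fold rule, a 3000 bp window, the nearest peak, equal weights of genes, peaks called in both libraries and, added after seeing the data, outlying sums without the peak with the largest read difference.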

Additional observations from a re-analysis of the deposited data

How the results depend on the processing

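No paired analysis was possible because each genotype has 1 library, and no replicate could be left out. Reads in peaks made up 14.5% of the total reads implied by the deposited RPM in Wtap-CKO and 16.8% in Wtapflox/flox. Whether that gap acted alike on strong and weak peaks was not tested. Differences within a gene cancel library scaling but would not cancel an unlike effect. Scaling to library totals shifts every ratio by about -0.22, and no value shows which scaling is right. Under it the ratios near starts were -0.39 for Tnnt2, -0.44 for Tnni3, -0.56 for Tnni1, -0.54 for Tnnc1, -0.42 for Tpm1 and -0.88 for Actc1, so 7 of 7 stayed below 0. Over all peaks they were 0.0827 for Tnnt2, -0.44 for Tnni3, -0.31 for Tnni1, -0.54 for Tnnc1, -0.23 for Tpm1 and -0.78 for Actc1. Outside 1000 bp they were 0.23 for Tnnt2 and -0.69 for Actc1, and turned to -0.0326 for Tnni1 and -0.0948 for Tpm1, so the higher outlying reads of those genes depend on the scaling; the differences within a gene do not. Centring and the pseudocounts moved no such ratio out of its counting interval.

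With a 3000 bp window the Tnnt2 ratio turned to 0.0898, since that window takes in peaks that were higher. With the nearest peak only, Tnni3 had -0.0902 and Tnnc1 -0.0033, since that choice leaves out the inner peak. With peaks called in both libraries only, Tnni1 had -0.21 over all peaks. With all peaks of the genes, Tnni1 minus Tnni3 was 0.13. Without the peak with the largest read difference, an alternative added after seeing the data, the outlying ratio of Tnnt2 was 0.27, and those of Tnni1 and Tpm1 had intervals that span 0. With each gene weighing the same, fetal minus adult was -0.21. The count of peaks past 2-fold upward, 0, became 1 with no floor, and 4 at 1.5-fold. The count downward, 0, became 1 with a pseudocount of 0.1, 1 with library totals and 5 at 1.5-fold. The median of the other thin filament genes stayed below 0 in every alternative run. Acta1, at 41 and 67 reads over its start in Wtap-CKO and Wtapflox/flox, is limited by depth.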
